A study of Rattus norvegicus with 12 samples.

Results

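Glycolysis and the response to low oxygen were followed through 35 genes in the calvaria of rats, the flat bones that roof the skull, 6 h after surgery. The members were taken by name: each is a probe whose gene name in the array files matched a listed symbol and which exceeded background clearly (the scanner software's mark) on 4 or more of the 12 arrays. Where a gene had several such probes, the probe with the highest mean signal stood for it. All 35 listed genes were kept, among 22926 genes kept in all. The probe used for each of the 35 was well above background on all 12 arrays, so none lay near the limit of 4. Of the members, 22 act in glucose uptake, glycolysis or the fate of pyruvate and lactate, and 13 belong to the hypoxia response. A single probe stood behind 19 members and several probes behind 16.

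Glycolysis splits glucose to pyruvate in the cytosol and yields ATP without oxygen. Lactate dehydrogenase turns pyruvate to lactate, and the pyruvate dehydrogenase kinases hold pyruvate back from oxidation in the mitochondria by switching off pyruvate dehydrogenase. When oxygen is short, the prolyl hydroxylases of the Egln family no longer mark the alpha subunits of the hypoxia-inducible factors for destruction through Vhl, and the factors induce genes of glucose uptake, glycolysis, pH control, angiogenesis and mitophagy. Bone cells use glycolysis heavily, and the factors are known to act in osteoblasts and osteocytes.

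Arrays of 3 groups were compared, 4 in each, all from rats 10 weeks old, the only description of the animals that the labels give. In the laser group a rectangle of 8 by 3 mm was cut by Er:YAG laser, which emits infrared light that water absorbs strongly. The bur group had a defect of that size drilled with a rotating bur, and in the control group the periosteum was taken off and the bone left uncut. The RNA is that of whole tissue labelled as bone, and whether the 4 samples of a group are separate animals is not given, so a p-value here reflects the spread among these samples only. Signals are given on the log2 scale relative to the 75th percentile of the array, so that 0 is the signal of a probe at that percentile, and levels of different probes are not compared. The share of spots well above background was 67.8% to 73.7% per array, and 0 spots were saturated. The number of arrays limits the precision. The 8 treated arrays lay on 2 slides, each with 2 laser and 2 bur arrays, and the 4 control arrays lay on another slide. Spike-in spots averaged 8.13 to 8.83 on the treated arrays and 4.92 to 5.34 on the control arrays (log2 of raw signal). Against control, treatment therefore cannot be told apart from slide and scan. Osteoblast and osteocyte markers, which check the label, were well above background in all groups.

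The hypoxia-inducible factors bind DNA at a short core of the letters ACGTG or GCGTG. To show what the start regions of the members look like, the 250 bases before the start (RefSeq, GRCr8, the first start listed for a gene) were searched on both strands. Of the 35 members 31 matched the table by symbol, and Bnip3l, Ndrg1, Pgk1 and Slc2a3 are named only. A core was found in 18 of the 31 (58.1%), and in 37.9% of all 27457 promoters searched. At least 2 cores were found in 38.7% of the member promoters and in 16.8% of all. The share was 12 of 20 (60.0%) for the glycolysis roles and 6 of 11 (54.5%) for the hypoxia response roles. A stretch such as CACGTG holds the core on both strands and counts on each. Base composition was not matched between these sets. Printed here are 4 promoters that hold a core, those of the described members with the smallest adjusted p, with the cores in capitals (read on the opposite strand, a core appears as CACGT or CACGC).
Pdk1, chr3:77113264-77113513, plus strand: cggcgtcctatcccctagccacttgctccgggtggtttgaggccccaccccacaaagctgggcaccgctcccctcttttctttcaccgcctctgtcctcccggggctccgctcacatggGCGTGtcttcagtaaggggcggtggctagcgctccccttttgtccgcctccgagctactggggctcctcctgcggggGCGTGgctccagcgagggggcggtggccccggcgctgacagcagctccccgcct
Eno1, chr5:166002617-166002866, plus strand: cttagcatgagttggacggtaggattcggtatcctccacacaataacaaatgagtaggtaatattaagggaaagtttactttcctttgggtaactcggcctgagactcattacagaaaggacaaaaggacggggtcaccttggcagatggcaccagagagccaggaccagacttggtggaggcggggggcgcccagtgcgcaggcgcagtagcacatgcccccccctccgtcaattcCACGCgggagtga
Hif1a, chr6:98359648-98359897, plus strand: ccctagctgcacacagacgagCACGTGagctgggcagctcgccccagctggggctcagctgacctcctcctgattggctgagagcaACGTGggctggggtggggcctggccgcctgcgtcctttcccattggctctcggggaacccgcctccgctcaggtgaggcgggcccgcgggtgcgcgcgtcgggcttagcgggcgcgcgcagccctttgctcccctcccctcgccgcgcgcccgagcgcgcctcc
Egln1, chr19:69804682-69804931, minus strand: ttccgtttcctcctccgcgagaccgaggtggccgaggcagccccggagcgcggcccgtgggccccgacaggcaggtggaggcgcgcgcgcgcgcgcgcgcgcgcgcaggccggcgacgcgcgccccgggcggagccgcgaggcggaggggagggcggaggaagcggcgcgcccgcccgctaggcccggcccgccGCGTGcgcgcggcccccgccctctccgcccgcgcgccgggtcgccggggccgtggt
In Pdk1 the cores began 131 and 54 bases before the start, in Eno1 13 bases before it on the opposite strand, and in Egln1 56 bases before it. Hif1a held cores at 229, 228 and 164 bases, the first of them on the opposite strand and overlapping the next. Gpi, Hk1, Kdm3a, Car9, Epas1 and Pfkfb4 held no core in this window. A match describes letters and is not a binding site, and its absence says nothing of the factor.

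The comparisons with control ask what had changed in ablated and in drilled bone by 6 h. In laser-ablated bone 5 members rose, among them the kinase gene Pdk1 and the factor gene Hif1a, and 12 fell, among them the hexokinase gene Hk1 and all 7 genes of the steps between glucose 6-phosphate and the triose phosphates. In bur-drilled bone likewise 5 rose and 12 fell. In each comparison 18 members did not pass. The test was limma over all genes with Benjamini-Hochberg adjustment at 0.05. Of all genes, 49.8% passed for laser (32.2% higher and 17.6% lower) and 51.0% for bur (32.7% higher and 18.3% lower), so that 48.6% of members called in each comparison lies near the background, while the lower calls make up 34.3% of the members. The groups did not overlap for 6 higher and 13 lower members in laser against control, where the shares of all genes were 31.0% and 17.8%. In bur against control they did not overlap for 6 higher and 11 lower members (30.4% and 15.7% of all genes). The median log2 difference of the members was -0.26 for laser and -0.21 for bur, beside 0.21 and 0.23 for all genes. Both comparisons use the same 4 control arrays. The split of calls depends on the scaling: of all genes called for bur, 64.2% were higher, and 51.6% with median centring or with normexp, which move the median of all genes to 0.05 and -0.01. With slide as a random block 4 members were higher and 9 lower in each comparison, while 8785 genes in all passed for laser and 8944 for bur, against 11421 and 11699 without the block. In whole tissue, fewer cells of a type and less RNA per cell cannot be told apart.

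**Figure D1:**
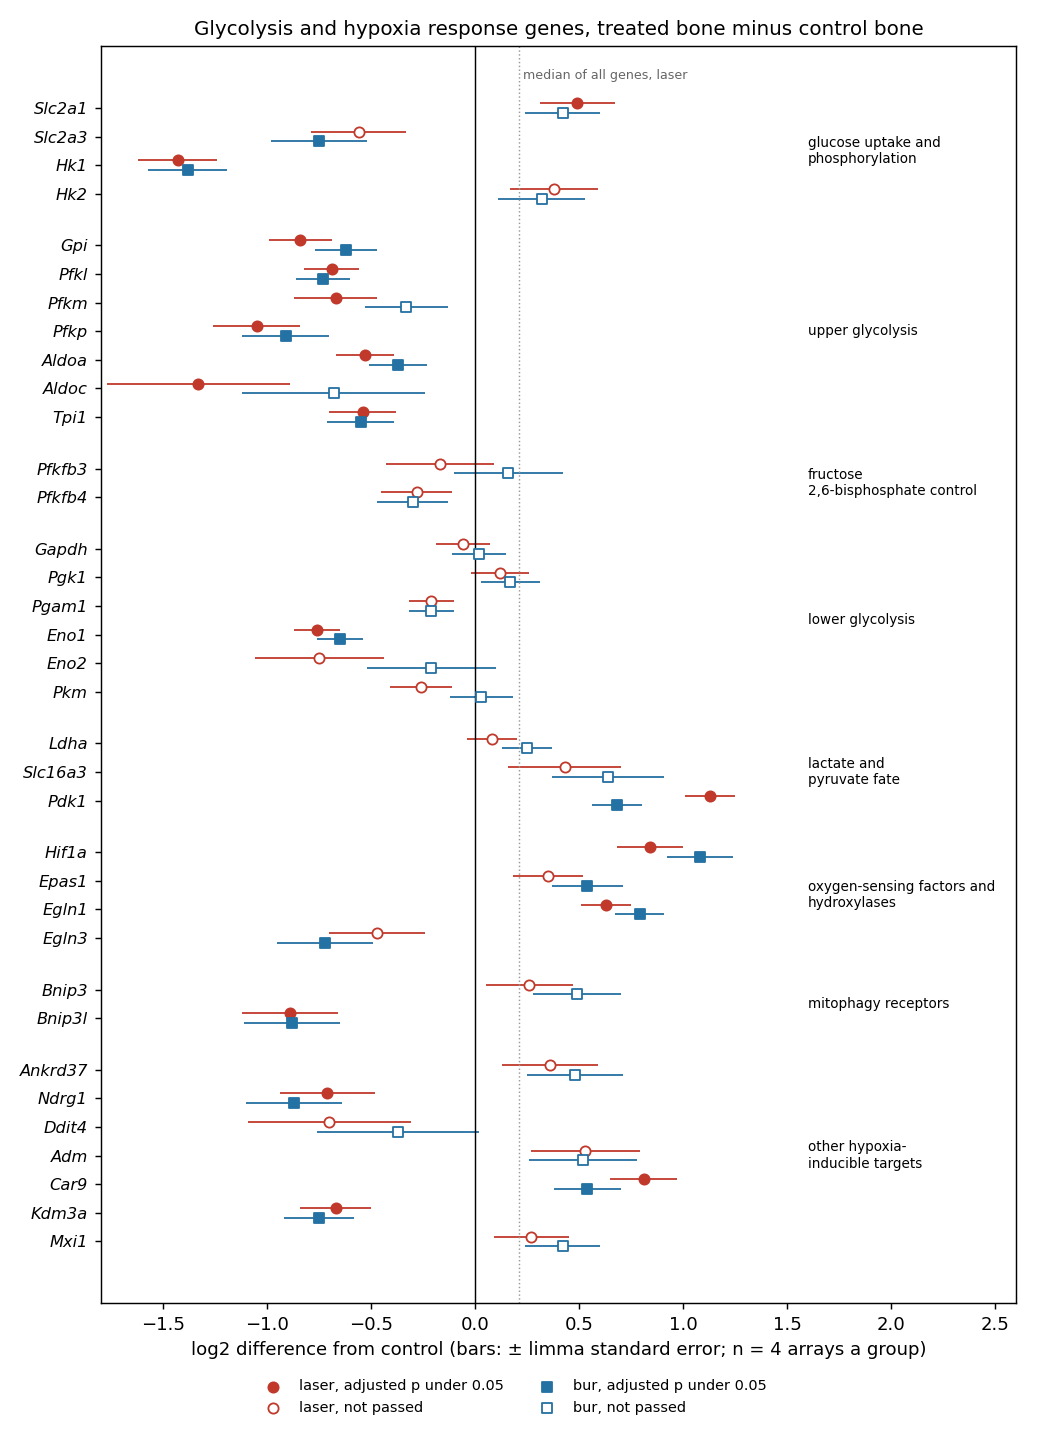
Log2 difference from control for the 35 members, grouped by role (horizontal axis), for laser (red circles) and bur (blue squares); bars are limma standard errors with 4 arrays a group, filled symbols passed at an adjusted p of 0.05, and the dotted line is the median of all genes for laser, 0.21. All 7 genes of upper glycolysis lie left of 0 in both comparisons, while Pdk1, Hif1a, Egln1 and Car9 lie to the right.

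Among the genes that sense oxygen, Hif1a, which encodes the widely expressed alpha subunit of the hypoxia-inducible factor, had signals of 3.96, 3.56, 3.82 and 4.18 on the laser arrays, 4.22, 4.04, 3.92 and 4.30 on the bur arrays and 3.13, 2.72, 3.18 and 3.12 on the control arrays. Every treated array lay above every control array, and control replicate 2 lay below the other controls. Hif1a rose by 0.84 on the log2 scale for laser (SE 0.16, adjusted p = 0.00199) and by 1.08 for bur (SE 0.16, adjusted p = 0.000574) in limma, 1.79-fold and 2.12-fold. These values come from the probe at chr6:96463815-96463874 (probe positions are given as in the array design, on assembly RGSCv3.4), which starts at base 3614 of the transcript. A second, dimmer Hif1a probe starting at base 2435 did not pass (0.30 for laser and -0.12 for bur, SE 0.25 each). The authors' deposited table of comparisons gives the probe used a log2 fold change of 0.37 for laser, which passed (adjusted p = 0.0295), and of 0.29 for bur, which did not (adjusted p = 0.071). Fitted here in limma with all 3 groups, the authors' deposited table of normalized values gave those differences adjusted p = 0.0857 and 0.168.

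Egln1 encodes the main oxygen-sensing prolyl hydroxylase. Its signals were 2.32, 1.99, 2.09 and 2.11 on the laser arrays, 2.34, 2.28, 2.04 and 2.48 on the bur arrays and 1.62, 1.41, 1.51 and 1.44 on the control arrays, again with no overlap between treated and control. Egln1 rose by 0.63 for laser (SE 0.12, adjusted p = 0.00212 in limma) and by 0.79 for bur (SE 0.12, adjusted p = 0.000716), and its second probe passed in the same direction (0.81 and 0.62, SE 0.15 each). The probe used lies at chr19:55079223-55079282, and both calls were kept in all 12 fits without 1 array and in all 16 other settings.

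Epas1, the gene of the second alpha subunit, prominent in endothelium, had signals of 5.03, 5.24, 4.93 and 4.98 on the laser arrays, 5.05, 5.04, 5.25 and 5.61 on the bur arrays and 4.92, 4.38, 4.60 and 4.89 on the control arrays. Every treated array lay above the highest control array, laser replicate 3 only just. For laser the difference of 0.35 did not pass (SE 0.17, adjusted p = 0.102), and for bur Epas1 rose by 0.54 (SE 0.17, adjusted p = 0.0196 in limma), a call lost without bur replicate 4 (0.42), control replicate 2 (0.44) or control replicate 3 (0.51). Its second probe gave 0.45 for laser and 1.34 for bur (SE 0.26 each), of which the second passed (adjusted p over probes = 0.00200 in limma). Of the endothelial markers, 1 of 9 rose and 3 fell for laser, and 2 rose and 1 fell for bur. Among all genes 32.2% rose and 17.6% fell for laser, and 32.7% and 18.3% for bur. The endothelial list means were 0.06 to 0.61 on laser, 0.30 to 0.49 on bur and 0.43 to 0.82 on control arrays.

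Egln3, a hydroxylase that is itself a target of the factors in many cells, went the other way. It fell by 0.72 for bur (SE 0.23, adjusted p = 0.0210 in limma), and the laser difference of -0.47 did not pass (adjusted p = 0.102). The bur call of Egln3 was lost when control replicate 3 (-0.65) or control replicate 4 (-0.66) was left out.

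Glucose enters bone cells through facilitative transporters and is trapped by hexokinases. Slc2a1, the gene of the basal transporter GLUT1, had signals of 2.41, 1.86, 2.32 and 1.99 on the laser arrays, 2.27, 2.00, 1.66 and 2.37 on the bur arrays and 1.64, 1.51, 1.66 and 1.80 on the control arrays. The laser and control arrays did not overlap, and bur replicate 3 lay among the controls. Slc2a1 rose by 0.49 for laser (SE 0.18, adjusted p = 0.0393 in limma), and the bur difference of 0.42 did not pass (SE 0.18, adjusted p = 0.0680). The laser call was lost without laser replicate 1 (0.41), laser replicate 3 (0.43) or control replicates 1, 2 or 3 (0.49, 0.45 and 0.50), and in 7 of the 16 other settings. Slc2a3, which encodes the high-affinity transporter GLUT3, fell by 0.75 for bur (SE 0.23, adjusted p = 0.0183 in limma), was not called without bur replicate 2 (-0.59) or bur replicate 4 (-0.64), and stood at -0.56 for laser (adjusted p = 0.0608).

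Hk1, the hexokinase of most tissues and the one of red cells, showed the largest difference among the members in both comparisons. Its signals were -1.33, -0.88, -1.67 and -1.29 on the laser arrays, -1.37, -1.19, -0.90 and -1.49 on the bur arrays and -0.10, 0.37, 0.17 and 0.13 on the control arrays. The treated arrays all lay below the control arrays. Hk1 fell by 1.43 for laser (SE 0.19, adjusted p = 0.000281) and by 1.38 for bur (SE 0.19, adjusted p = 0.000377) in limma, 2.70-fold and 2.61-fold lower, and kept both calls in all 12 fits without 1 array and all 16 other settings. Its probe starts at base 2686 of the transcript, and no position is given for it in the design. Hk2, the inducible hexokinase, did not pass (0.38 for laser and 0.32 for bur, SE 0.21 each).

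Upper glycolysis comprises the steps that use ATP and split the sugar. All 7 of its genes fell for laser and 5 of 7 fell for bur, beside 17.6% and 18.3% of all genes. The median log2 differences were -0.69 and -0.62, beside 0.21 and 0.23 for all genes. The log2 differences of all 7 were below 0 in both comparisons under every setting run. Each of the 7 has a single probe, so the settings of probe choice could not change its value. All settings also drew on the same control slide. The probes of Aldoa and Tpi1 start at bases 581 and 443 of the transcript, and the part of probe position was not tested. Gpi, which isomerises glucose 6-phosphate, had signals of 3.32, 3.35, 3.68 and 3.77 on the laser arrays, 3.65, 3.55, 4.05 and 3.76 on the bur arrays and 4.27, 4.45, 4.42 and 4.33 on the control arrays, with every treated array below every control array. Gpi (chr1:86659123-86659182) fell by 0.84 for laser (SE 0.15, adjusted p = 0.00114) and by 0.62 for bur (SE 0.15, adjusted p = 0.00570) in limma.

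Phosphofructokinase, which commits the sugar to glycolysis, is built from liver, platelet and muscle type subunits. Pfkl, the liver type (chr20:11032281-11032340), stood at -0.50, -0.54, -0.62 and -0.53 on the laser arrays, -0.46, -0.55, -0.79 and -0.58 on the bur arrays and -0.15, 0.23, 0.34 and 0.13 on the control arrays. It fell by 0.69 for laser and by 0.73 for bur (SE 0.13 each, adjusted p = 0.00149 and 0.00111 in limma), and the groups did not overlap. Pfkp, the platelet type (chr17:74822966-74823025), had signals of 2.20, 2.66, 2.53 and 2.41 on the laser arrays, 2.34, 2.50, 2.95 and 2.57 on the bur arrays and 3.43, 3.50, 4.01 and 3.04 on the control arrays. Treated and control arrays stood apart here too, with control replicate 4 nearest to the treated ones. Pfkp was 2.07-fold lower for laser (log2 -1.05, SE 0.21, adjusted p = 0.00228) and 1.88-fold lower for bur (log2 -0.91, adjusted p = 0.00470) in limma. Pfkm, the muscle type, fell by 0.67 for laser (SE 0.20, adjusted p = 0.0185 in limma), a call lost without control replicate 2 (-0.52, adjusted p = 0.0529), and stood at -0.33 for bur (adjusted p = 0.189).

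Of the aldolases, which split fructose 1,6-bisphosphate, the ubiquitous Aldoa fell by 0.53 for laser (SE 0.14, adjusted p = 0.00872) and by 0.37 for bur (adjusted p = 0.0440) in limma. The bur call of Aldoa was lost without any 1 of 10 arrays, among them bur replicate 3 (-0.29) and control replicate 2 (-0.28), and in 8 of 16 other settings. Aldoc, the aldolase of brain, fell by 1.33 for laser (SE 0.44, adjusted p = 0.0274 in limma) and stood at -0.68 for bur (adjusted p = 0.210). Its control signals were 3.37, 3.98, 3.76 and 2.15, and the laser call was lost without laser replicates 2, 3 or 4 (-1.20, -1.33 and -1.21) or control replicates 1, 2 or 3 (-1.31, -1.11 and -1.18). Without control replicate 4, the lowest of the controls, Aldoc passed for bur too, at -1.07 (adjusted p = 0.0423 in limma). Tpi1, which interconverts the triose phosphates, fell by 0.54 for laser and by 0.55 for bur (SE 0.16 each, adjusted p = 0.0153 and 0.0134 in limma).

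Pfkfb3 and Pfkfb4 make and break fructose 2,6-bisphosphate, an activator of phosphofructokinase, and neither passed by the probe used. Pfkfb4 had signals of 0.71, 0.60, 0.61 and 0.54 on the laser arrays, 1.15, 0.40, 0.60 and 0.24 on the bur arrays and 0.87, 0.92, 0.84 and 0.94 on the control arrays. All laser arrays lay below the controls and the bur arrays lay on both sides of them, and the differences were -0.28 and -0.30 (SE 0.17 each, adjusted p = 0.188 and 0.163 in limma). A second Pfkfb4 probe fell by 0.89 for laser and 1.13 for bur (SE 0.22 each). For Pfkfb3 the probe used gave -0.17 and 0.16 (SE 0.26 each). Of the other Pfkfb3 probes, one rose by 0.72 for laser and 1.09 for bur (SE 0.22 each), and another passed in the same direction but was not well above background on any control array, so no size is given for it.

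**Figure D2:**
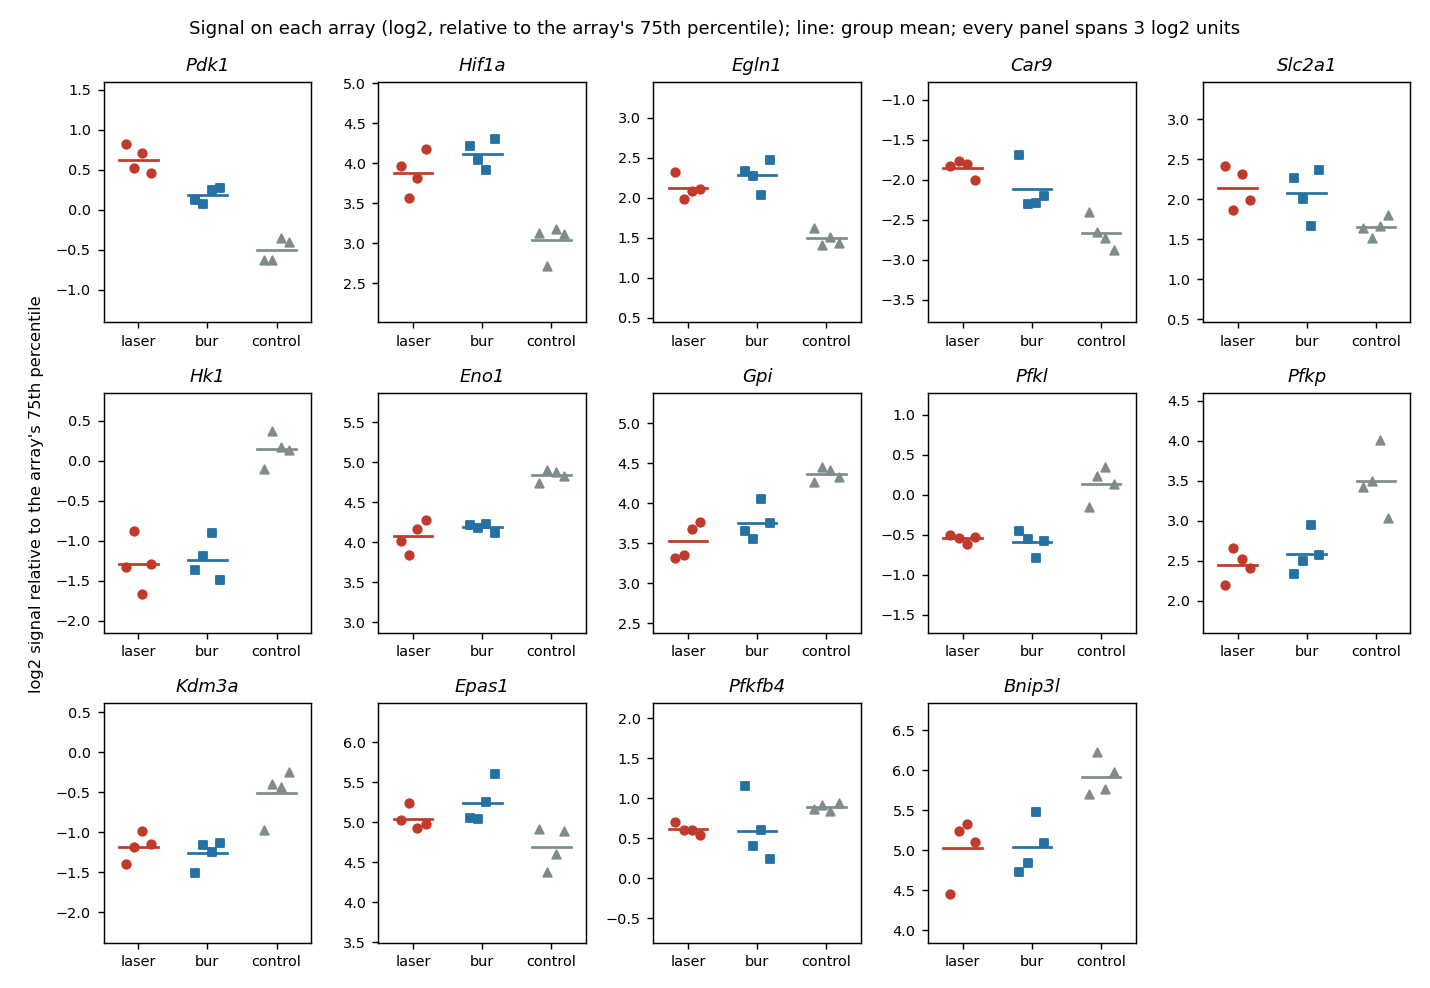
Signal of 14 members on each of the 12 arrays (vertical axis, log2 relative to the array's 75th percentile, every panel spanning 3 units), for laser, bur and control from left to right; horizontal lines are group means. Pdk1, Hif1a and Egln1 lie higher and Hk1, Eno1, Gpi, Pfkl and Pfkp lower in both treated groups than in control, with no overlap.

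In lower glycolysis, the steps that return ATP, 1 of 6 genes fell in each comparison and 0 rose. The share lower, 16.7%, lay near the 17.6% and 18.3% of all genes for laser and bur. The gene that fell was Eno1, the ubiquitous enolase. Its signals were 4.02, 3.84, 4.17 and 4.28 on the laser arrays, 4.22, 4.18, 4.23 and 4.12 on the bur arrays and 4.74, 4.90, 4.88 and 4.83 on the control arrays, which lay above all treated arrays. Eno1 fell by 0.76 for laser (SE 0.11, adjusted p = 0.000528) and by 0.65 for bur (SE 0.11, adjusted p = 0.00124) in limma, and both of its other probes fell as well. The probe used lies at chr5:167405206-167405265. By the probes used, Pgk1 (0.12 and 0.17), Pgam1 (-0.21 and -0.21), Gapdh (-0.06 and 0.02), the neuronal enolase Eno2 (-0.75 and -0.21) and Pkm (-0.26 and 0.03) did not pass for laser and bur. A second Eno2 probe gave 0.33 for laser and rose by 0.61 for bur (SE 0.20 each).

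Gapdh, Pkm and Ldha read differently through their other probes. All 8 Gapdh probes were well above background on every array. The probes starting at bases 181, 192, 482, 484, 984 and 996 of the transcript all fell, by 0.53 to 0.96 for laser and by 0.47 to 1.11 for bur, whereas those starting at 1102, which was used, and 1121 gave -0.06 and 0.07 for laser and 0.02 and 0.09 for bur. The letters of neighbouring Gapdh probes that cover the same stretch do not fully agree. The pair starting at 181 and 192 overlaps by 49 bases with 2 letters that differ, the pair at 984 and 996 by 51 bases with 2, and the pair at 1102 and 1121 by 41 bases with 2. The first 30 bases of the first pair (rat chromosome 4, minus strand) are printed to show this, with the differing letters in capitals.
Gapdh probe starting at 181: ttgacctcaactacatGgtctacatgttGc
Gapdh probe starting at 192: tacatTgtctacatgttCcagtatgactct
At least 1 probe of each pair thus departs from the transcript it is assigned to. Gapdh has many near-identical processed copies in the rat genome, and which copy each probe reads was not tested, so the level of Gapdh is uncertain here.

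Ldha, which makes lactate, gave 0.08 for laser and 0.25 for bur (SE 0.12 each, adjusted p = 0.590 and 0.101 in limma) by the probe starting at base 1549. Its probe at 1431 gave -0.48 and -0.38 and its probe at 981 gave -0.96 and -0.90, of which all but the -0.38 passed. Pkm, the pyruvate kinase of most tissues, gave -0.26 and 0.03 by the probe at 1911, -0.38 and 0.16 at 1729, -1.24 and -1.20 at 1586 and -1.16 and -0.39 at 1329, of which the pair at 1586 and the laser value at 1329 passed. Over 11 members with kept probes at least 100 bases apart on 1 transcript, the laser difference was more positive at the probe nearer the 3′ end in 7 (63.6%, median gap 0.55), beside 60.8% of 2950 transcripts (median gap 0.18). For bur this held for 8 of 11 (72.7%, median 0.46), beside 57.9% (median 0.13). The labels give no measure of RNA quality, and the part of probe position in the values of these genes was not tested. No direction is given for Gapdh, Ldha and Pkm.

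**Figure D3:**
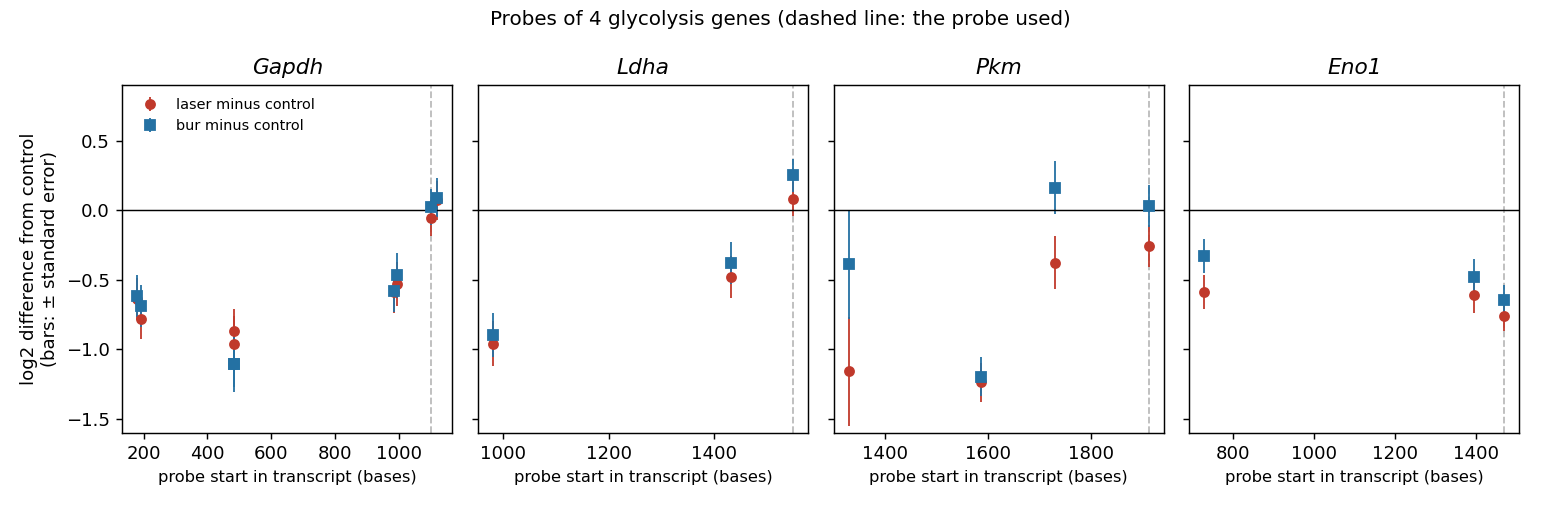
Log2 difference from control (vertical axis, bars ± standard error) of every kept probe of Gapdh, Ldha, Pkm and Eno1 against the start of the probe in the transcript in bases (horizontal axis), for laser (red circles) and bur (blue squares); dashed lines mark the probe used. The Gapdh probes from 181 to 996 lie below 0 and those at 1102 and 1121 near 0, and the 3 Eno1 probes all lie below 0.

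At the branch point of pyruvate, Pdk1, the pyruvate dehydrogenase kinase induced by the hypoxia-inducible factors, had the smallest adjusted p of the members for laser. Its signals were 0.82, 0.53, 0.71 and 0.46 on the laser arrays, 0.13, 0.07, 0.25 and 0.28 on the bur arrays and -0.63, -0.62, -0.35 and -0.40 on the control arrays. All 3 groups stood apart, with laser highest and control lowest. Pdk1 rose by 1.13 for laser (SE 0.12, adjusted p = 0.000137) and by 0.68 for bur (SE 0.12, adjusted p = 0.00140) in limma, 2.19-fold and 1.61-fold. The probe used (chr3:54320728-54320787) starts at base 2839. The probe at 689 gave 0.59 and 0.36 and the one at 4613 gave 0.53 and 0.26, of which the laser values passed, while the dim probe at 1921 gave -0.27 for laser and fell by 0.84 for bur (adjusted p over probes = 0.0140 in limma). The laser call of Pdk1 was kept in every other setting (0.46 to 1.17). The bur call was lost with the mean of its probes (0.11), the probe nearest the 3′ end (0.26) and the authors' deposited table (0.13). That table reads Pdk1 through the probe at 1921, which gave the 0.46 for laser and the 0.13 for bur. The same probe gave -0.27 and -0.84 as scaled here, and the cause of the change in sign was not tested. Slc16a3, the gene of the lactate exporter MCT4, did not pass (0.43 for laser, adjusted p = 0.196, and 0.64 for bur, adjusted p = 0.0660).

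Of the mitophagy receptors Bnip3 and Bnip3l, which bring mitochondria to the autophagosome, only Bnip3l passed. Bnip3l, which also clears mitochondria from maturing red cells, had signals of 4.45, 5.24, 5.33 and 5.10 on the laser arrays, 4.73, 4.84, 5.47 and 5.09 on the bur arrays and 5.70, 6.23, 5.76 and 5.98 on the control arrays. The control arrays lay above all treated arrays, and laser replicate 1 was the lowest of all. Bnip3l (chr15:46516681-46516740) fell by 0.89 for laser and by 0.88 for bur (SE 0.23 each, adjusted p = 0.00807 and 0.00817 in limma), and its second probe fell by 1.20 and 1.57 (SE 0.26 each). Bnip3 did not pass (0.26 for laser and 0.49 for bur, SE 0.21 each). A second Bnip3 probe gave -0.27 for laser and -0.51 for bur (SE 0.25 each), the direction of Bnip3l, and did not pass either. No direction is given for Bnip3.

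Of the 7 other hypoxia-inducible targets, 1 rose and 2 fell in each comparison (14.3% and 28.6%). Among all genes 32.2% rose and 17.6% fell for laser, and 32.7% and 18.3% for bur. Car9, the gene of a membrane carbonic anhydrase that exports acid, had signals of -1.83, -1.77, -1.81 and -2.00 on the laser arrays, -1.69, -2.31, -2.29 and -2.20 on the bur arrays and -2.41, -2.65, -2.73 and -2.88 on the control arrays. The groups did not overlap with control, though the lowest bur array lay close to the highest control array. Car9 (chr5:59991393-59991452) rose by 0.81 for laser (SE 0.16, adjusted p = 0.00212) and by 0.54 for bur (SE 0.16, adjusted p = 0.0157) in limma, and with normexp background correction neither call held (0.27 and 0.10). The bur call was also lost with median centring, with the authors' deposited table of normalized values and with the treated arrays of slide 2 only.

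Kdm3a, a histone demethylase gene that the factors induce in many cells, stood at -1.40, -1.18, -0.98 and -1.15 on the laser arrays, -1.51, -1.16, -1.25 and -1.13 on the bur arrays and -0.97, -0.39, -0.43 and -0.25 on the control arrays. The treated arrays all lay below the controls, with control replicate 1 close to them. Kdm3a fell by 0.67 for laser and by 0.75 for bur (SE 0.17 each, adjusted p = 0.00789 and 0.00421 in limma). Ndrg1, a stress-responsive gene, fell by 0.71 for laser and by 0.87 for bur (SE 0.23 each, adjusted p = 0.0250 and 0.00999 in limma). Its laser call was lost without laser replicate 2 (-0.62), and the laser difference was -0.47 without control replicate 4.

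Ankrd37 (0.36 and 0.48), Adm, the gene of the vasodilator adrenomedullin (0.53 and 0.52), Mxi1, a Myc antagonist (0.27 and 0.42, with a second probe that fell by 0.38 for laser), and Ddit4, an inhibitor of mTOR signalling (-0.70 and -0.37), did not pass for laser and bur. Several of them were high on 1 control array. Control replicate 4 was the highest control array for 6 of the 13 hypoxia response members, with Ndrg1 at 2.24 against 1.15 to 1.42 on the other 3, Bnip3 at 2.92 against 1.84 to 2.32, Ankrd37 at 0.52 against -0.63 to -0.20 and Adm at 2.74 against 1.74 to 2.19. Without that array the probes used for Bnip3, Ankrd37 and Adm passed in both comparisons, at 0.47, 0.59 and 0.73 for laser and 0.70, 0.72 and 0.72 for bur. In each, 8 of the 35 members in place of 5 were then called higher. Of all 22926 genes, 6365 were higher for laser and 6393 for bur without that array, against 7389 and 7505 with it. The bur arrays differed among themselves too, with bur replicate 4 the highest of them for 10 of the 13 genes and bur replicate 2 the lowest for 8. The mean signal of the 13 genes was 1.66 to 1.90 on laser, 1.59 to 2.03 on bur and 1.56 to 2.01 on control arrays. Bur replicate 4 gave the 2.03 and control replicate 4 the 2.01. The mean of the 22 glycolysis members was 2.13 to 2.35 on laser, 2.35 to 2.45 on bur and 2.50 to 2.76 on control arrays, with the control arrays above all treated ones.

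The comparison of laser with bur asks whether the way of cutting made a difference to these genes. No member passed in limma (0 higher and 0 lower of 35, smallest adjusted p = 0.531 for Pdk1), and of all genes 0.00436% passed, a single gene, Hspa1a. At an unadjusted p of 0.05, 1 member (2.86%) and 6.51% of all genes passed. That member was Pdk1, whose laser and bur arrays did not overlap (0.46 to 0.82 and 0.07 to 0.28), with a difference of 0.45 (SE 0.12, unadjusted p = 0.00370). It was the only member of the 35 with groups apart, beside 2.06% of all genes higher and 1.50% lower without overlap. The 95% intervals show what size could have been missed. They lay within 1 log2 unit of 0 for 32 members and within 0.5 for 14, and reached as low as -1.61 for Aldoc and as high as 0.75 for Egln3. Hk1 differed by -0.05 (interval -0.47 to 0.36), Eno1 by -0.11 (-0.36 to 0.14), Hif1a by -0.24 (-0.60 to 0.12) and Egln1 by -0.16 (-0.43 to 0.12). The median of the members was -0.11 and that of all genes 0.01. With slide as a block, which both treated slides allow, 0 members passed and Pdk1 kept its difference of 0.45 (adjusted p = 0.333).

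**Figure D4:**
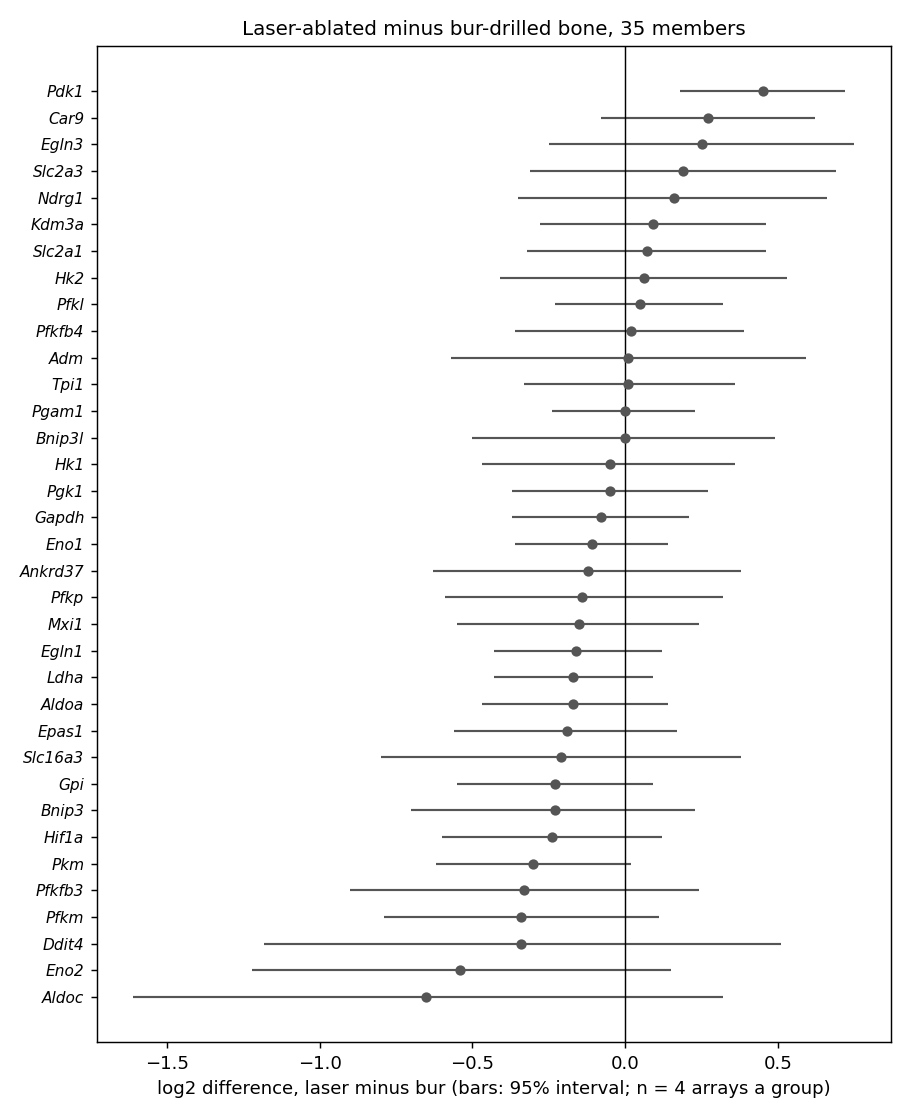
Log2 difference of laser minus bur for the 35 members (horizontal axis), in order of size, with 95% intervals from limma and 4 arrays a group. The interval lies wholly above 0 for Pdk1 and spans 0 for the other members, and it is widest for Aldoc.

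Genes of the same pathways outside the 35 were read from lists. Of 38 other glycolysis and glucose genes 35 were measured. For laser 8 rose and 8 fell (22.9% each, beside 32.2% and 17.6% of all genes). For bur 7 rose and 11 fell (20.0% and 31.4%, beside 32.7% and 18.3% of all genes). The medians were -0.22 for laser and -0.19 for bur, beside 0.21 and 0.23 for all genes. Gpd1, which links glycolysis to glycerol 3-phosphate and fat, averaged -1.71 ± 0.39 on laser, -1.70 ± 0.44 on bur and 1.18 ± 0.42 on control arrays (SD, n = 4 each) and fell by 2.89 and 2.88 (SE 0.28 each, adjusted p = 0.000101 and 0.000131 in limma). Fat cells are rich in Gpd1, and of the 5 measured adipocyte markers 4 fell for laser and 5 for bur, with list means of -2.59 to -1.20 on laser, -2.99 to -0.84 on bur and 0.23 to 0.95 on control arrays. Whether Gpd1 moved with these cells was not tested. Slc16a1, the lactate transporter MCT1, fell by 0.99 and 0.91 (SE 0.18 each), and Pfkfb1, the liver form of the fructose 2,6-bisphosphate enzyme, by 1.33 and 1.69 (SE 0.31 each). Pdha1, the catalytic subunit of pyruvate dehydrogenase that the Pdk kinases switch off, rose by 0.91 and 0.82 (SE 0.13 each). Of the other Pdk genes, Pdk3 averaged 1.94 ± 0.24 on laser, 1.11 ± 0.34 on bur and 1.04 ± 0.16 on control arrays (SD, n = 4 each). It rose by 0.90 for laser (SE 0.18, adjusted p = 0.00264 in limma), stood at 0.07 for bur, and its difference between laser and bur, 0.83, did not pass (adjusted p = 0.408). Pdk2 stood at 0.30 for laser and rose by 0.64 for bur (SE 0.16 each). Pgm2, which feeds glucose 6-phosphate, stood at -0.11 for laser and fell by 0.35 for bur (SE 0.12 each).

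Of 52 other genes of the hypoxia-inducible factor pathway 49 were measured. For laser 17 rose and 7 fell (34.7% and 14.3%, beside 32.2% and 17.6% of all genes; median 0.36), and for bur 19 rose and 7 fell (38.8% and 14.3%, beside 32.7% and 18.3% of all genes; median 0.41). The shares higher thus lay near those of all genes. P4ha1, a collagen prolyl hydroxylase subunit, averaged 4.60 ± 0.26 on laser, 4.08 ± 0.28 on bur and 2.62 ± 0.30 on control arrays (SD, n = 4 each). It rose by 1.99 and 1.46 (SE 0.20 each, adjusted p = 0.000108 and 0.000368 in limma), 3.97-fold and 2.76-fold. Maff, a small Maf factor, rose by 1.72 and 1.68 and Angptl4, an inhibitor of lipoprotein lipase, by 1.46 and 1.62 (SE 0.20 each). Vhl, the ubiquitin ligase subunit that removes the factors, rose by 0.94 and 0.78 (SE 0.12 each). Hif3a, a further alpha subunit gene, rose by 1.51 and 1.54 (SE 0.21 each) and was well above background on 1 of 4 control arrays. Car12, a membrane carbonic anhydrase like Car9, rose by 1.72 for laser (SE 0.29, adjusted p = 0.00105 in limma) and stood at 0.10 for bur, and the laser and bur difference of 1.61 did not pass (adjusted p = 0.248). Gbe1, the glycogen branching enzyme, fell by 0.71 for laser and by 1.37 for bur (SE 0.19 each). In laser against bur 0 genes of either list passed.

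Markers of the cell types that calvarial tissue can hold were read in the same comparisons. Among all genes 32.2% rose and 17.6% fell for laser, and 32.7% and 18.3% for bur. Erythroid markers, cells that use Hk1 and Bnip3l, fell for 9 of 12 genes in each comparison, with list means of -0.01 to 3.49 on laser, 1.74 to 3.66 on bur and 4.52 to 5.21 on control arrays, and laser replicate 1 was lowest on this list, as it was for Bnip3l but not for Hk1, where laser replicate 3 was lowest (-1.67, against -1.33 in laser replicate 1). Neural and glial markers, cells that use Aldoc and Eno2, fell for 7 of 11 genes in each comparison. Their list means were -3.43 to -2.40 on laser, -3.68 to -0.82 on bur and -2.19 to 0.42 on control arrays. Control replicate 4 was the lowest control array on that list and for Aldoc (2.15), Eno2 (0.86) and Pfkp (3.04). Bur replicate 2 was the highest bur array on the list and for Aldoc (3.45) and Eno2 (1.90). It was not the highest for Pfkp, where it gave 2.50 against 2.95 on bur replicate 3. Elavl3, a neuronal gene, was not well above background on any laser array.

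Skeletal muscle markers, cells rich in Pfkm and Aldoa, had 0 of 13 genes passing. The log2 differences of all 13 were nevertheless below 0 in both comparisons, with medians of -2.02 for laser and -1.93 for bur. The muscle list means were -1.43 to 0.38 on laser, -2.55 to 0.25 on bur and -2.02 to 4.28 on control arrays, which were widely spread. A difference in muscle content is thus not excluded. Control replicate 2 was the highest array on that list and also for Pfkm (2.30), Aldoa (3.85) and Tpi1 (1.62). These genes do not stand alone, since it was the highest control array for 10 of the 22 glycolysis members. Hk1 (0.37), Gpi (4.45), Eno1 (4.90) and Aldoc (3.98) are among those 10. Mature neutrophil markers fell for 6 and 5 of 11 genes, monocyte and macrophage markers fell for 6 and 5 of 12 with 1 and 0 higher, and all 8 markers of proliferating cells fell in both comparisons. Osteoblast and osteocyte markers rose for 11 of 12 genes in each comparison (91.7%, beside 32.2% and 32.7% of all genes). Their list means were 4.13 to 4.47 on laser, 4.02 to 4.58 on bur and 2.50 to 3.17 on control arrays. The remaining marker for laser, the osteocyte gene Sost, was called lower (-0.80, adjusted p = 0.0460 in limma), while for bur it was called higher (0.88, adjusted p = 0.0310). The part that a changed share of these cells has in the values of the 35 members was not tested.

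**Figure D5:**
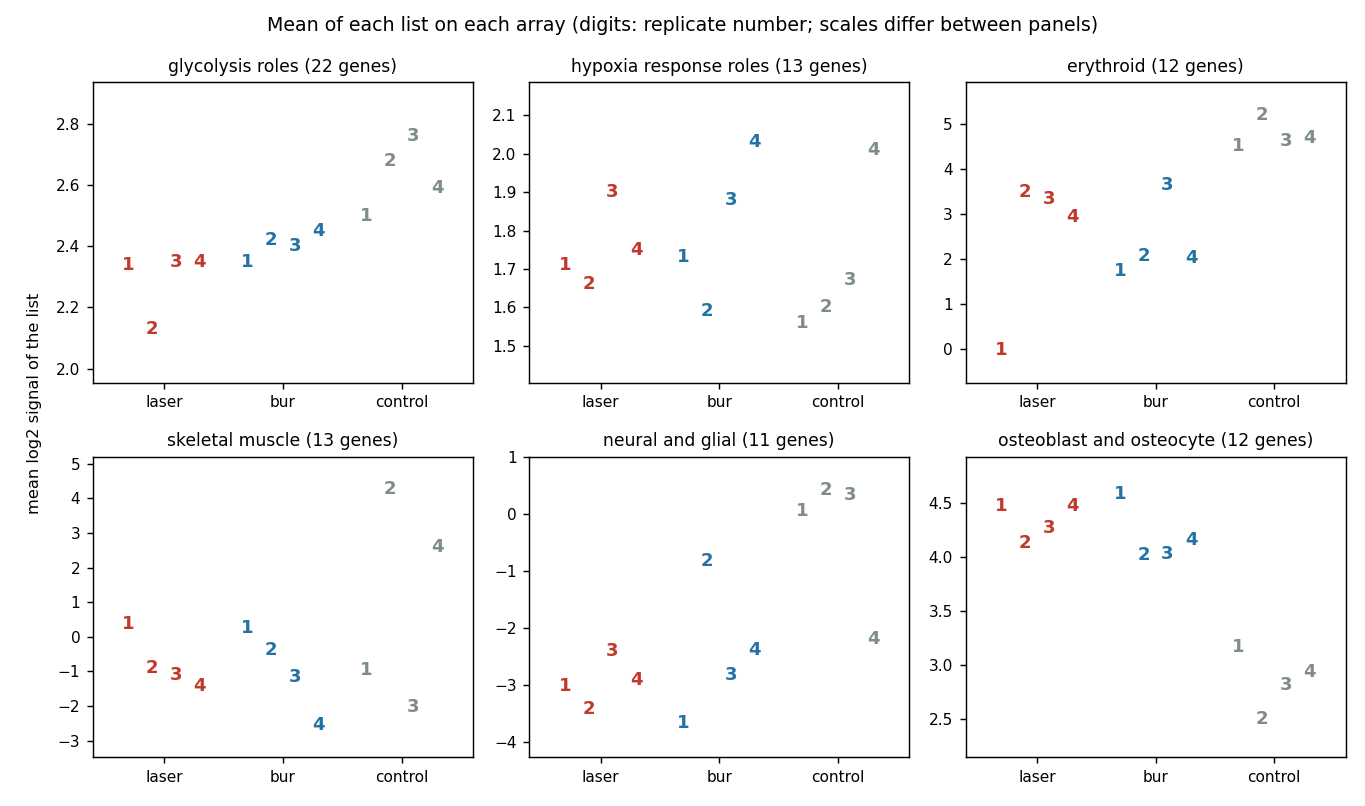
Mean log2 signal of the glycolysis and hypoxia response members and of 4 marker lists on each array (vertical axis, scales differ between panels), for laser, bur and control from left to right; digits are replicate numbers. Control arrays lie above all treated arrays for the glycolysis members and the erythroid markers. Control 4 stands apart from the other controls on the hypoxia and neural lists, and controls 2 and 4 do so on the muscle list.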

How the data were processed

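Total RNA was measured on 12 one-colour arrays. The authors deposited spot intensity values with background subtracted (Agilent Feature Extraction 11.0.1.1, named by the submitters' processing notes), a table of log2 values that its name calls quantile-normalized, and comparison tables with a log2 fold change and a p-value per probe. Other steps of that normalization and the model behind the comparisons are not given in the sources used here. Control and outlier spots were left out, spots of a probe were averaged (45598 probes), log2 intensity was set relative to each array's 75th percentile, which hides a change shared by most genes, and 30121 probes well above background on at least 4 arrays were kept, 1 per gene name (22926 genes). Gene names are those of the array files.

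Groups were taken from the sample titles. All 12 arrays were fitted together with a mean per group in limma 3.58.1 (R 4.3.3; lmFit, eBayes), two-sided, adjusted by Benjamini-Hochberg over all genes kept, at 0.05. Adjusted p-values of further probes are over all kept probes. Scripts were tested on simulated data.

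The members and lists were chosen with earlier results of these data known. Values in every array are given for up to 6 members per comparison and direction with the smallest adjusted p among those that passed without overlap of the groups, and for the member with the smallest p of a role with none. From each pathway list up to 3 genes per comparison are named. Other genes were picked for their probes, for an array that stands apart or for a marker list after their values were seen. Alternatives covered scaling, background, filter, probe choice, slide and replicate blocks, an intensity trend, array weights, the authors' table and leaving out each array. The probe nearest the 3′ end and 1 treated slide at a time were added after seeing the data.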

Additional observations from a re-analysis of the deposited data

Results flagged for a closer look

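Hif1a, the gene of the hypoxia-inducible factor subunit, had a signal of 2.72 on control replicate 2, while the other 3 control arrays lay between 3.12 and 3.18. The gap to the nearest of them, as a share of the range of the group, was 0.870, above Dixon's limit for 4 samples. Of 105 groups of 4 arrays searched, 1 was set apart in this way, and chance alone does so for about 1 group in 20. Without that array Hif1a rose by 0.74 for laser and by 0.98 for bur, and both calls were kept (adjusted p = 0.00655 and 0.00202 in limma).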

How the results depend on the processing

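The number of members called higher was 4 to 8 without 1 array and the number called lower 10 to 15 for laser and 10 to 12 for bur, and in the other settings these counts were 4 to 7 and 7 to 16 for laser and 2 to 8 and 7 to 15 for bur. For laser against bur both were 0 in every setting run. Members called higher for bur, 5 as reported, were 3 with median centring, 8 with normexp and an offset of 50, and 2 with the authors' deposited table. Of all genes, 7505 were higher for bur as reported and 5186, 4846 and 5482 in these settings. With the treated arrays of slide 2 only, 7 members were lower in each comparison. In those fits 7957 genes in all passed for laser and 8299 for bur, against 11421 and 11699 with both treated slides. The median log2 difference of members was -0.29 to -0.16 for laser and -0.21 to -0.02 for bur without 1 array. For laser it was -0.45 with quantile normalization, -0.37 with a percentile taken over probes detected on every array and with median centring, -0.16 with normexp, -0.48 with the authors' table, -0.47 with the mean of a gene's probes and -0.12 with slide 2 only. For bur it was -0.39 with median centring, -0.31 with the authors' table, -0.33 with the mean of probes, -0.03 with array weights and -0.04 with slide 2 only, and for laser against bur -0.00 with the mean of probes. Ldha turned to -0.35 (quantile normalization), -1.15 (authors' table) and -0.45 (mean of probes) for laser and to -1.02 and -0.34 (authors' table and mean of probes) for bur. Gapdh turned to -0.76 and -0.56 for bur in the same 2 settings, Pkm to -0.80 for bur in the authors' table, and Pfkfb3 to 0.96 for laser with the mean of probes. The authors' table holds another probe for 5 members. Its Ldha and Gapdh probes gave -0.90 and -1.11 for bur as scaled here, beside -1.02 and -0.76 in that table. Its Pkm probe, starting at base 1729, gave 0.16 for bur as scaled here and -0.80 in that table. The cause of these changes was not tested. The share of higher calls among all called genes, 64.7% for laser and 64.2% for bur, was 55.4% to 58.0% and 51.6% to 57.1% under other scalings, normexp and the authors' table, where the median of all genes was 0.03 to 0.10 and -0.01 to 0.15. Same-numbered arrays correlated at 0.04 to 0.58, above 0 in every pair but not above 0.1 in all, and the labels do not say what a number stands for, so the arrays were not treated as paired. A hint of shared numbers remains. Each laser array was set against the 4 bur and the 4 control arrays, and each bur array against the 4 control arrays. In 9 of these 12 searches the best match among the 4 had the same number. Same-numbered laser and bur arrays also lay on the same slide, so between those groups number is not separate from slide. With replicate number as a block 8 members were higher for bur, and 8262 of all genes, against 7505 without it. For bur Adm, Mxi1 and Slc16a3 gained a call and Aldoa lost its lower one. For laser Adm and Hk2 gained a higher call and Slc2a3 and Ddit4 a lower one. The probe used for each member was well above background on all 12 arrays. Car9 stood at 0.27 for laser and 0.10 for bur with normexp, and the cause was not tested.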
